A study of Mus musculus with 16 samples.

Results

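The comparison described here is between extracellular miRNAs of HCT116 cells 72 h after 2 Gy of X-rays and those of cells given 0 Gy, with 4 arrays at each dose. These 8 arrays are all those titled for the 2 doses, out of 16 in the series, and every human miRNA on them was considered. HCT116 is an established human colorectal carcinoma line, and the material was RNA from the culture supernatant, not from the cells. Both groups were kept in RPMI1640 medium with 10% fetal bovine serum. The 2 Gy group differed from the 0 Gy group in the X-rays, given at a high dose rate per the labels. The other 8 arrays hold the 6 Gy and 10 Gy groups. Per the series' design text, the cultures of a dose came from 4 independent experiments. The 2 Gy arrays are known from their own labels, since the design text names only 0, 6 and 10 Gy. In the labels the organism is mouse, but HCT116 is human and so are the miRNAs on the array. Serum can itself carry RNA into a supernatant, and its share here was not tested.

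miRNAs are short RNAs of about the length of the sequences printed below, and they repress mRNAs that pair with their seed, the bases 2 to 8 from the 5′ end. Cells release some of them in vesicles or bound to proteins, and the released pool also holds fragments of tRNAs and other small RNAs that older annotations named as miRNAs. In colorectal carcinoma, miR-21 is known as an abundant miRNA that represses the tumour suppressor PDCD4, the let-7 and miR-34 families as miRNAs that restrain growth, and the miR-200 family as a keeper of the epithelial state. Ionising radiation breaks DNA and activates p53, which in turn raises transcription of the miR-34 genes.

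Mature sequences are printed for 12 of the called miRNAs, to show seeds that tested miRNAs share, the arms of 1 precursor and examples of the falls and rises described below. They are from RefSeq's mouse build GRCm38.p6, since no human sequence was used here. Of the 36 called miRNAs, 19 had a mouse entry of that name (miR-21-5p through mouse miR-21a-5p), 12 of those lower and 7 of those higher at 2 Gy. The human sequences were not compared with these. Capitals mark the seed. The first 8 sequences were lower at 2 Gy and the next 4 were higher.

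miR-125b-5p: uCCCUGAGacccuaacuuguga
miR-25-3p: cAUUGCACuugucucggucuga
miR-92b-3p: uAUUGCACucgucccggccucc
miR-100-5p: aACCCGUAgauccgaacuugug
miR-21-5p: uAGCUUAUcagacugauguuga
miR-221-3p: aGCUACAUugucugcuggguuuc
miR-30e-5p: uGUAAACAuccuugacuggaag
miR-149-5p: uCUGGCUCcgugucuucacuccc
miR-149-3p: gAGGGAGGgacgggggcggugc
miR-30c-2-3p: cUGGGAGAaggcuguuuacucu
miR-134-5p: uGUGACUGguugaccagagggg
miR-483-5p: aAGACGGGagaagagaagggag

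Shared seeds were sought only among tested miRNAs with a mouse entry, at most 90 of 283, so other holders of a seed may be missing. The seed AUUGCAC stands in miR-25-3p and miR-92b-3p, both called lower, and in 1 more of these, miR-92a-3p. The seed GCUACAU of miR-221-3p is also that of miR-222-3p, and the seed UGGGAGA of miR-30c-2-3p is also that of miR-30c-1-3p. miR-149-5p and miR-149-3p are opposite arms of 1 precursor, in an intron of the glypican gene GPC1.

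A level is the log2 of an array's signal after division by that array's 75th percentile, taken over 518 probes detected on all 16 arrays. Levels were not let below a floor of -4.60. A miRNA was tested if all 4 arrays of some dose detected a probe of it, which 283 of 1205 human miRNAs passed. Levels of different miRNAs cannot be compared with each other. Differences are 2 Gy minus 0 Gy in log2, with the standard error (SE) of limma's fit and its p adjusted by Benjamini-Hochberg over the 283 miRNAs, called where under 0.05.

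After 2 Gy, 36 of 283 tested miRNAs (12.7%) were called, 17 higher (6.01%) and 19 lower (6.71%). The falls were much larger than the rises. Differences of the 19 lower miRNAs ran from -3.53 to -0.35 with a median of -1.52, and those of the 17 higher from 0.30 to 0.94 with a median of 0.50. Over all tested miRNAs the median was 0.03, with quartiles of -0.36 and 0.22, and 150 were above 0. A fall of over 1 was measured for 36 tested miRNAs, 14 of them called, and a rise of over 1 for 0. At an unadjusted p under 0.05 stood 45 higher and 54 lower miRNAs.

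**Figure D1:**
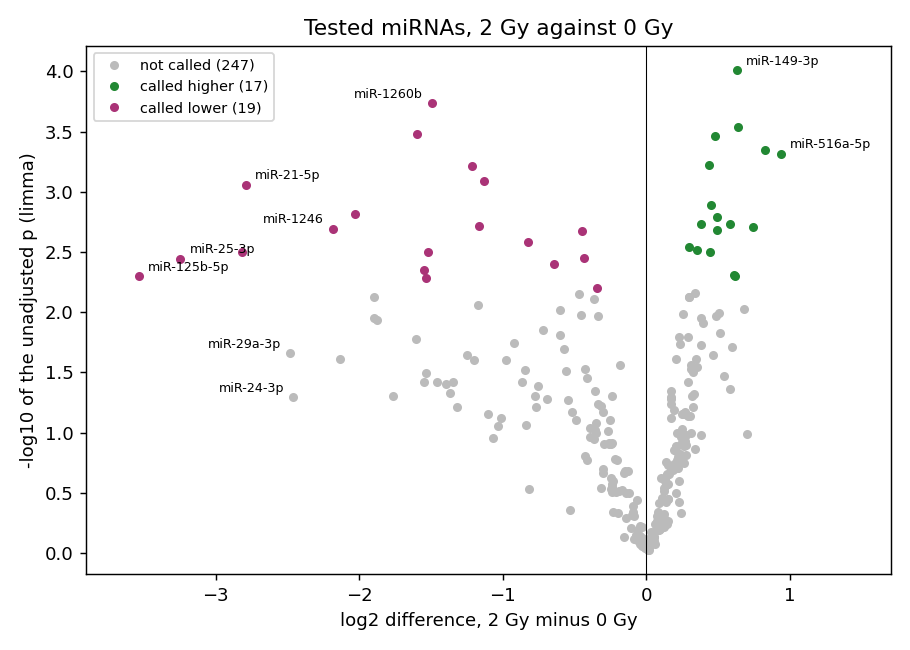
Each of the 283 tested miRNAs by its log2 difference (x axis, 2 Gy minus 0 Gy, 4 arrays each) and the -log10 of its unadjusted p from limma (y axis), with called miRNAs in colour. The 17 called rises all lie under 1, whereas the 19 called falls reach -3.53 at miR-125b-5p. Several large falls, such as miR-29a-3p and miR-24-3p, have a p too high to be called.

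In each group 1 array stood apart from the others, as seen among the called miRNAs. Among the 4 arrays at 0 Gy, replicate 3 lay closest to the 2 Gy mean for 16 of the 19 miRNAs called lower and 11 of the 17 called higher. Among the 4 at 2 Gy, replicate 2 lay closest to the 0 Gy mean for 14 of the 19 and 13 of the 17. Such counts were not made over all tested miRNAs, so whether these 2 arrays stand apart over that whole set was not tested. With both left out, 152 miRNAs were called (85 higher, 67 lower). More calls follow from leaving out arrays chosen for lying near the other dose, so this count, and every value given without these 2 arrays, shows only how far they bear on the result and supports no call. The count depends on single arrays in both directions. Leaving out 0 Gy replicate 3 gave 121 calls, leaving out 2 Gy replicate 2 gave 87 and leaving out 6 Gy replicate 4 gave 55, since all doses share 1 estimate of the spread. The count fell to 3, 21 and 14 when 0 Gy replicates 1, 2 and 4 were left out in turn, and to 6 for 2 Gy replicate 3. Without 2 Gy replicate 1, and likewise without replicate 4, limma called 0, with 69 miRNAs at an unadjusted p under 0.05 in each case. Each of the 36 kept its direction in all of these fits, though leaving out a 6 Gy array does not alter a difference.

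Both doses were on 1 slide, so the slide does not separate them, but the 0 Gy arrays filled its columns 1 and 2 and the 2 Gy arrays columns 3 and 4. Dose and slide column cannot be told apart. Fitted on the 8 arrays of that slide alone, limma called 0 miRNAs, with 69 at an unadjusted p under 0.05. The differences are the same as in the main fit, so the direction of the 36 could not change there. Detected miRNAs numbered 311, 358, 310 and 331 on the 0 Gy arrays (327.5 ± 22.5, SD, n = 4) and 305, 348, 262 and 287 at 2 Gy (300.5 ± 36.2), with an exact two-sided permutation p of 0.229 (0.471 adjusted over 3 array measures), where the smallest possible was 0.0286. The unscaled 75th percentile was 8.84 ± 0.35 and 8.95 ± 0.35 in log2 (exact p = 0.714, adjusted 0.714). A control RNA added before labelling read 9.34, 7.49, 0.92 and 8.50 in log2 at 0 Gy, lowest on replicate 3, and 1.86, 6.11, 5.54 and 3.78 at 2 Gy, highest on replicate 2 (exact p = 0.314, adjusted 0.471). This labelling control was recorded as in range on 0 Gy replicates 1 and 4, and as out of range on the other 0 Gy arrays and every 2 Gy array. With this control as a covariate, 38 miRNAs were called and 34 of the 36 were among them. Falls in the lists described below were smaller with it. Medians moved from -1.32 to -0.62 for the let-7 family and from -3.18 to -2.12 for the miR-125, miR-100 and miR-99 list. Every other list with a negative median also shrank in size, except the miR-320 family (-0.14 to -0.17). A control added before hybridisation was 14.09 ± 0.38 at 0 Gy and 13.29 ± 0.06 at 2 Gy, with all 2 Gy arrays below all 0 Gy arrays (exact two-sided permutation p = 0.0286, unadjusted), so that its part in the differences and that of dose cannot be told apart.

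**Figure D2:**
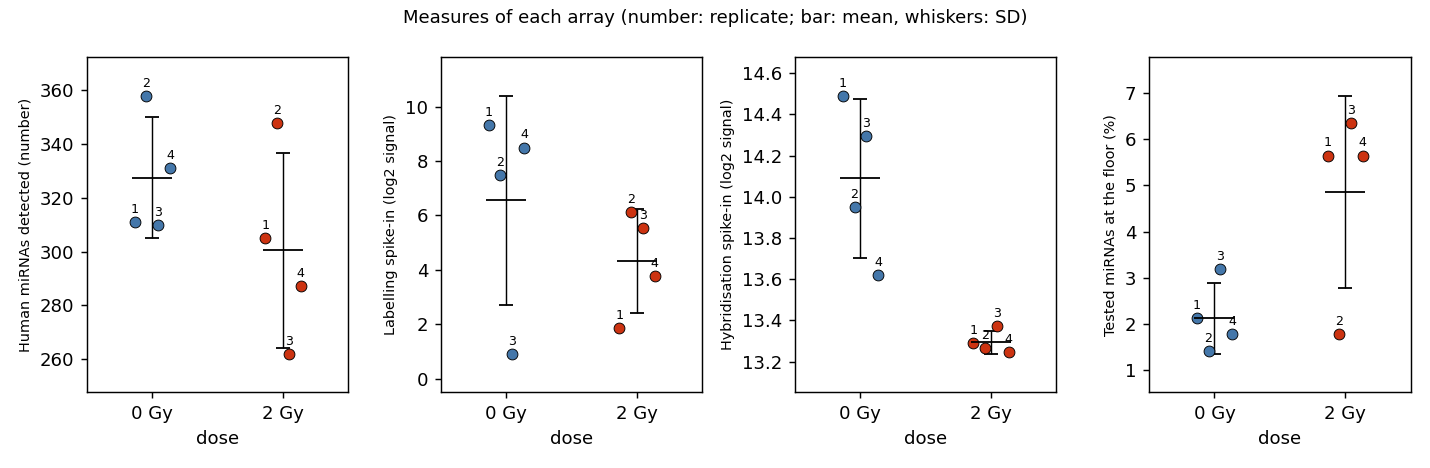
Measures of each of the 8 arrays, one point per array labelled by replicate number, with the mean as a bar and the SD as whiskers (n = 4 per dose): detected human miRNAs, 2 control signals in log2, and the percent of the tested miRNAs at the floor. 0 Gy replicate 3 has the lowest labelling control of all 8 arrays (0.92), and 2 Gy replicate 2 has the most detected miRNAs (348) and the fewest at the floor (1.77%) of its dose.

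Markers of other tissues served as a check on the source of the RNA. The red blood cell miRNA miR-451a was detected on 0 of 16 arrays, as were the blood cell miRNAs miR-223-3p, miR-142-3p and miR-150-5p, and miR-1-3p of muscle. Also detected on 0 was miR-192-5p, which is on the liver list and on the p53-responsive list and so is no marker of another tissue alone. Of the neural names, miR-124-3p, miR-9-5p and miR-219a-5p were detected on 0, miR-128-3p on 3 and miR-138-5p on 5. The liver miRNA miR-122-5p was detected on 4 of 16. Of 4 names on the red blood cell list 1 was tested, miR-486-5p, at -3.81 to -3.67 at 0 Gy and -3.73 to -3.49 at 2 Gy. Among 6 white blood cell and platelet names, miR-155-5p alone was tested, at -3.21 to -2.84 and -2.93 to -2.69. Of 4 on the muscle list 3 were tested, with a summed level from -2.31 to -2.14 and from -2.61 to -2.10. They were detected on 16 arrays (miR-133a-3p and miR-206) and on 13 (miR-133b), with differences of 0.12, -0.35 and 0.09. None of these 5 was called, and the 3 liver and 5 neural names had 0 tested. Among epithelial miRNAs, miR-200c-3p and miR-141-3p were detected on all 8 arrays. The rest of the miR-200 list was not tested, with miR-200a-3p detected on 4, miR-200b-3p on 8 and miR-429 on 6 of 16 arrays.

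The largest falls were those of miRNAs that were at the floor on most 2 Gy arrays. miR-125b-5p, the vertebrate form of the worm miRNA lin-4 and a known repressor of p53 mRNA, read 0.73, 0.91, -3.43 and 1.12 on 0 Gy replicates 1 to 4 and -4.60, -1.01, -4.60 and -4.60 on 2 Gy replicates 1 to 4. Replicates 1, 2 and 4 at 0 Gy were high, replicate 3 was low, and at 2 Gy only replicate 2 was above the floor, so the groups overlapped. It fell by 3.53 ± 1.06 (SE, adjusted p = 0.0417), a fold of 11.6. Its difference was -5.52 without 0 Gy replicate 3 and 2 Gy replicate 2. miR-100-5p, of the miR-99/100 family that targets MTOR, read -0.48, -0.56, -3.23 and -0.22 at 0 Gy and -4.60, -1.96, -4.60 and -4.60 at 2 Gy. The same 2 arrays stood apart and the groups overlapped. It fell by 2.82 ± 0.79 (adjusted p = 0.0333).

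miR-25-3p, made from the miR-106b-25 cluster in an intron of MCM7, read 0.25, 0.48, -3.29 and 0.41 at 0 Gy and -4.60, -1.33, -4.60 and -4.60 at 2 Gy. Again 3 arrays of each dose were far apart and replicate 3 at 0 Gy lay below replicate 2 at 2 Gy. It fell by 3.25 ± 0.93 (adjusted p = 0.0350). miR-21-5p read -0.88, -1.46, -2.98 and 0.03 at 0 Gy and -4.60, -2.64, -4.60 and -4.60 at 2 Gy. Replicate 3 at 0 Gy was the one array of its group below 2 Gy replicate 2. The fall was 2.79 ± 0.66 in log2 (adjusted p = 0.0225), a fold of 6.90, with its 2 probes at -3.45 and -2.12.

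miR-221-3p, a known repressor of the cell cycle inhibitor CDKN1B, read -1.89, -1.34, -3.86 and -1.90 at 0 Gy and -4.60, -3.30, -4.60 and -4.60 at 2 Gy. It overlapped through the same pair of arrays and fell by 2.03 ± 0.52 (adjusted p = 0.0283). miR-1274a_v16.0, a name from an older release for a sequence now read as a piece of a lysine tRNA, was at -1.74, -3.06, -4.60 and -2.21 at 0 Gy and -4.60, -3.93, -4.60 and -4.60 at 2 Gy. Floor values were thus 1 of 4 and 3 of 4, and the fall was 1.53 ± 0.46 (adjusted p = 0.0417).

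Values at the floor have no order, so a fall is understated where only 2 Gy arrays lie there. For miR-1274a_v16.0, with 0 Gy replicate 3 at the floor too, it may be larger or smaller. Of the 19 miRNAs called lower, 7 were at the floor on 3 or 4 of the 2 Gy arrays. The filter also bears on them: 9 of the 19 passed it through the 0 Gy arrays and not through the 2 Gy arrays, 4 of them through no dose but 0 Gy, whereas all 17 called higher were detected on all 16 arrays. With only the 247 miRNAs detected on all 8 arrays tested, 27 were called, 18 higher and 9 lower.

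Other large falls were of miRNAs that stayed measurable at 2 Gy. miR-1246, a sequence shared with the spliceosomal U2 RNA and known from vesicles of cancer cells, read 1.75, 1.28, -0.12 and 1.72 at 0 Gy and -1.39, -0.03, -1.13 and -1.54 at 2 Gy. Its groups overlapped only through 0 Gy replicate 3 and 2 Gy replicate 2, and it fell by 2.18 ± 0.58 (adjusted p = 0.0283), a fold of 4.53. miR-494-3p, from the large imprinted cluster at 14q32, read 4.18, 3.27, 2.46 and 3.92 at 0 Gy and 1.36, 2.83, 1.86 and 1.60 at 2 Gy. The overlap was through the same arrays, and the fall was 1.55 ± 0.46 (adjusted p = 0.0404). miR-4286 read -0.30, -1.31, -2.74 and -0.90 at 0 Gy and -2.92, -2.51, -2.91 and -3.01 at 2 Gy. Only 0 Gy replicate 3 lay among the 2 Gy arrays, and the fall was 1.52 ± 0.43 (adjusted p = 0.0333).

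Groups that did not overlap, with all 2 Gy arrays below all 0 Gy arrays, were found for 12 of all 283 tested miRNAs (4.24%) and for 6 of the 19 called lower. miR-1290 read -1.56, -2.34, -2.84 and -2.04 at 0 Gy and -3.97, -3.39, -3.80 and -4.0 at 2 Gy. All arrays of 2 Gy were below the lowest of 0 Gy, and the fall was 1.60 ± 0.34 (adjusted p = 0.0190), although its 2 probes differed in size, at -2.80 and -0.40. miR-1260b, whose sequence resembles a piece of a leucine tRNA, was at -1.11, -2.59, -2.53 and -2.23 at 0 Gy and at -3.59, -3.64, -3.55 and -3.68 at 2 Gy, with the 4 arrays of 2 Gy almost at 1 level and all below those of 0 Gy. It fell by 1.49 ± 0.30 (adjusted p = 0.0190), a fold of 2.82. It was called under 29 of 35 alternative settings, more than any other of the 36. The remaining 4 of the 6 were miR-4299 (-1.21 ± 0.28), miR-4284 (-1.16 ± 0.31), miR-149-5p (-0.43 ± 0.12) and miR-92b-3p. The last was at the floor on all 4 arrays of 2 Gy, and its fitted difference of -0.45 ± 0.12 rests on that floor.

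**Figure D3:**
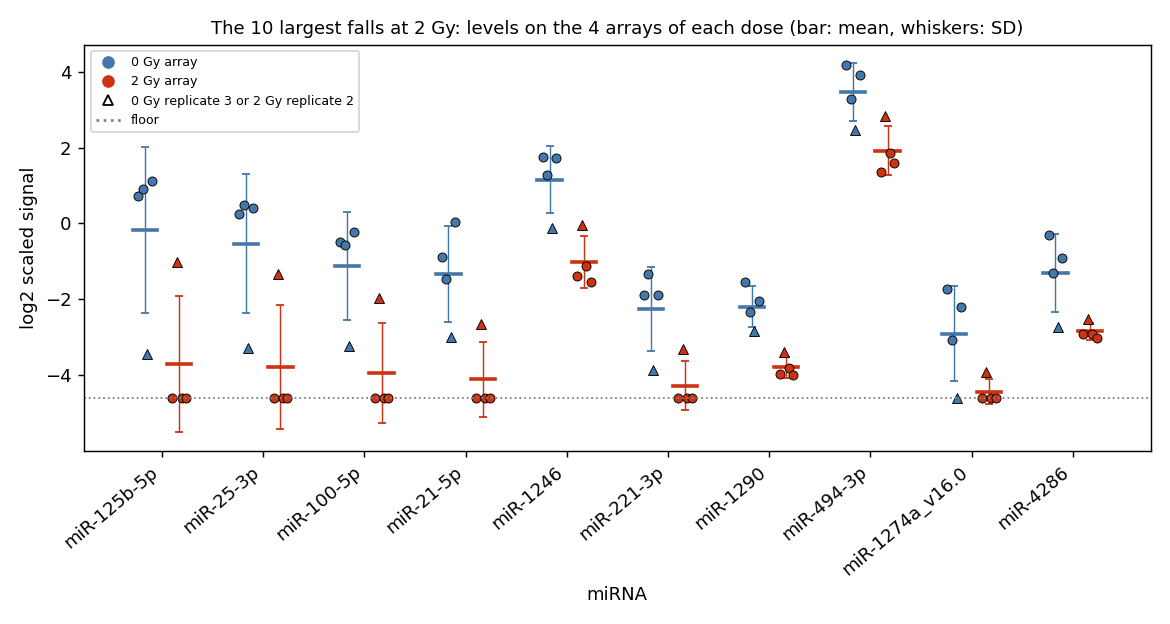
Levels (y axis, log2 of scaled signal) of the 10 miRNAs with the largest called falls (x axis) on the 4 arrays of 0 Gy and the 4 of 2 Gy, with the mean as a bar and the SD as whiskers. Triangles mark 0 Gy replicate 3 and 2 Gy replicate 2, which lie between the other arrays of the 2 doses except in miR-1274a_v16.0, where 0 Gy replicate 3 is at the floor. The dotted line is the floor at -4.60, where 3 of the 4 arrays of miR-125b-5p at 2 Gy lie.

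A further 4 miRNAs were called lower with overlapping groups. miR-30e-5p, whose seed is that of the miR-30 family, fell by 1.13 ± 0.27 (adjusted p = 0.0225) and was at the floor on 3 of the 2 Gy arrays. miR-181b-5p, of a family known from lymphocyte development, fell by 0.83 ± 0.23. miR-196b-5p, encoded in a HOX cluster, fell by 0.64 ± 0.19, and miR-539-5p, from 14q32, by 0.35 ± 0.11 with the highest adjusted p of the 36, just under the threshold. miR-539-5p was called under 9 of 34 alternative settings, the fewest of the 36.

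Rises were smaller than falls, and the arrays behind them lay closer together. The median SD of the 17 miRNAs called higher was 0.24 at 0 Gy and 0.13 at 2 Gy, against 0.77 and 0.28 for the 19 called lower. A small difference is called only where its spread is small, so these SDs depend on the choice of called miRNAs. All 2 Gy arrays lay above all 0 Gy arrays for 13 of the 17, and for 20 of all 283 tested (7.07%). In the 15 of the 17 with at least 2 tested probes, every probe moved up, and in the 13 of the 19 lower with at least 2, every probe moved down. The called levels are means over these same probes, so this agreement does not bear out the calls.

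The largest rise was that of miR-516a-5p, from the primate miRNA cluster on chromosome 19 that is known mainly from placenta. It read -3.61, -3.24, -2.81 and -3.39 at 0 Gy and -2.29, -2.54, -2.33 and -2.13 at 2 Gy. The groups did not overlap, 0 Gy replicate 3 and 2 Gy replicate 2 being the nearest to each other. It rose by 0.94 ± 0.21 (adjusted p = 0.0190), a fold of 1.91. From the neighbouring miR-371-373 cluster, known from embryonic stem cells and germ cell tumours, miR-371a-5p read 0.00, 0.22, 0.68 and -0.13 at 0 Gy and 0.91, 0.55, 0.86 and 0.78 at 2 Gy. Replicate 2 at 2 Gy lay below replicate 3 at 0 Gy, and the rise was 0.58 ± 0.15 (adjusted p = 0.0283). miR-373-5p read -2.02, -2.05, -1.92 and -1.72 at 0 Gy and -1.41, -1.67, -1.31 and -1.34 at 2 Gy. Its groups were just apart, and it rose by 0.50 ± 0.13 (adjusted p = 0.0283).

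miR-149-3p read -3.17, -3.31, -2.77 and -3.19 at 0 Gy and -2.37, -2.71, -2.41 and -2.44 at 2 Gy. The groups did not overlap and it rose by 0.63 ± 0.12 (adjusted p = 0.0190), while miR-149-5p, the other arm printed above, was at -3.12, -3.71, -3.59 and -3.50 at 0 Gy and -4.03, -4.0, -3.82 and -3.80 at 2 Gy. That arm fell by 0.43 ± 0.12 (adjusted p = 0.0350), so the arms of 1 precursor were called in opposite directions, and the probes of each arm moved one way (0.44 to 0.80, and -0.71 to -0.16). miR-30c-2-3p read -3.47, -2.95, -2.85 and -3.11 at 0 Gy and -2.26, -2.57, -2.25 and -2.34 at 2 Gy. All 2 Gy arrays were above all 0 Gy arrays, with a rise of 0.74 ± 0.20 (adjusted p = 0.0283).

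miR-765 read -1.61, -1.25, -1.13 and -1.35 at 0 Gy and -0.52, -0.71, -0.45 and -0.36 at 2 Gy. It rose by 0.82 ± 0.18 (adjusted p = 0.0190) with no overlap. miR-3605-5p was at -3.47, -2.82, -2.88 and -3.02 at 0 Gy and -2.41, -2.53, -2.43 and -2.27 at 2 Gy. It rose by 0.64 ± 0.13 (adjusted p = 0.0190), also with no overlap, and 0 Gy replicate 1 was its lowest array. miR-483-5p, from an intron of the growth factor gene IGF2, read 1.05, 1.40, 1.73 and 1.14 at 0 Gy and 2.02, 1.69, 2.04 and 2.05 at 2 Gy. Its groups overlapped only through 0 Gy replicate 3 and 2 Gy replicate 2, and it rose by 0.62 ± 0.19 (adjusted p = 0.0417).

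miR-711 read -3.92, -4.09, -3.43 and -4.07 at 0 Gy and -3.21, -3.55, -3.14 and -3.17 at 2 Gy. Here too the same 2 arrays made the overlap, and the rise was 0.61 ± 0.18 (adjusted p = 0.0417). miR-134-5p, a 14q32 miRNA known from dendrites of neurons, read 1.64, 2.07, 2.13 and 2.14 at 0 Gy and 2.57, 2.34, 2.48 and 2.56 at 2 Gy. Its groups did not overlap, and it rose by 0.49 ± 0.13 (adjusted p = 0.0283). The other 7 called higher rose by 0.30 to 0.48. They were miR-1226-5p (0.48 ± 0.10) and miR-1224-5p (0.36 ± 0.10), both mirtrons, that is miRNAs spliced out as whole short introns, and miR-601, miR-188-5p, miR-3181, miR-4271 and miR-3187-3p. Of these 7 only miR-1224-5p had overlapping groups.

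**Figure D4:**
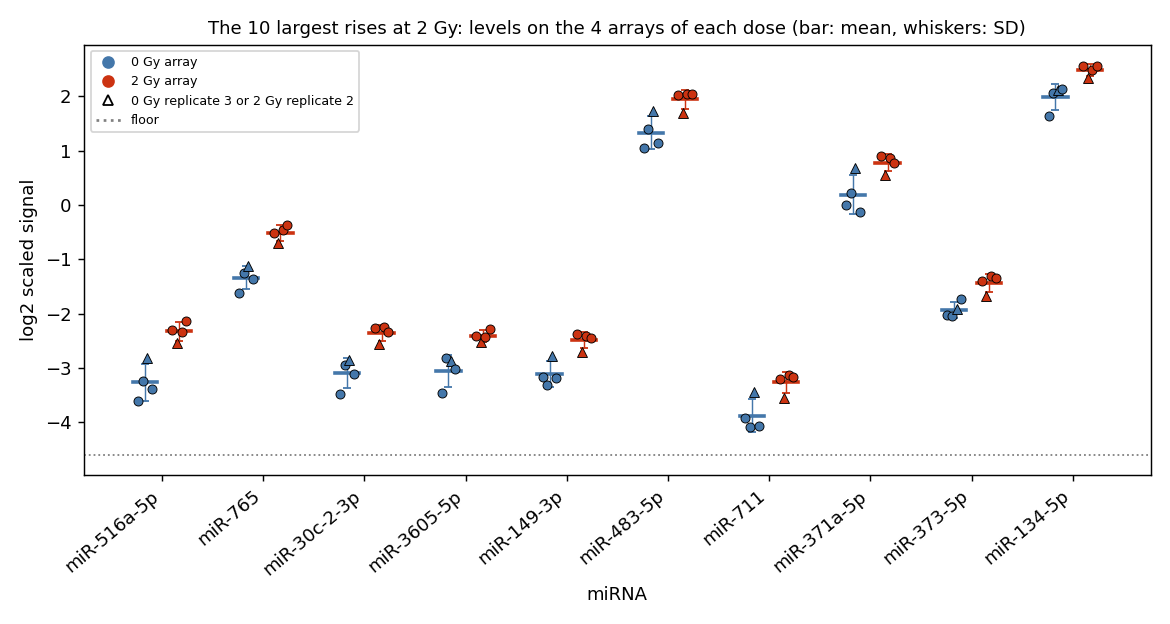
Levels (y axis, log2 of scaled signal) of the 10 miRNAs with the largest called rises (x axis) on the 4 arrays of each dose, with the mean as a bar and the SD as whiskers. The 2 Gy arrays lie above the 0 Gy arrays in 7 of the 10, and in miR-371a-5p, miR-711 and miR-483-5p the triangles (0 Gy replicate 3, 2 Gy replicate 2) make the overlap.

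The 6 Gy and 10 Gy groups were compared with the same 0 Gy arrays, so their differences share the spread of those arrays with the ones above. All 6 Gy and 10 Gy arrays were on the other slide, so in these differences dose and slide cannot be told apart. The miRNAs given here are examples. For miR-125b-5p the differences were -3.53 at 2 Gy, -3.41 at 6 Gy (adjusted p = 0.0407) and -1.24 at 10 Gy (adjusted p = 0.502). For miR-21-5p they were -2.79, -2.72 and -1.80, and for miR-1246 -2.18, -1.97 and -0.84, with adjusted p at 10 Gy of 0.129 and 0.417. Values of miR-516a-5p were 0.94, 0.61 and 0.67, not called at 6 Gy (adjusted p = 0.0514) or at 10 Gy (0.0822). miR-149-3p stood at 0.63, 0.27 and 0.63, called at 2 Gy and at 10 Gy (adjusted p = 0.0272) and not at 6 Gy (0.0964).

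Families and pathways are described next by how many tested members were called, against 17 higher and 19 lower of 283 and a median of 0.03 over all tested. Apart from the miR-320 family, every list with a median below 0 kept it below 0 under each scaling tried. Without the 2 arrays that stand apart, 67 of all 283 tested miRNAs were called lower and 85 higher. In that fit, 7 of 9 names like fragments of other RNAs were called lower, and 5 of 5 of the miR-17-92 and miR-106b-25 list. So were 4 of 4 of the miR-23, miR-27 and miR-24 clusters and 3 of 3 of the let-7 family. The choice of arrays favours these counts. In the list of names like fragments of other RNAs, which holds pieces of tRNAs and of U2, 6 of 9 tested members fell, 0 rose and the median was -1.49. The 6 were miR-1246, miR-1290, miR-1260b, miR-1274a_v16.0, miR-4284 and miR-4286. The other 3, miR-1274b_v16.0 (-0.72), miR-720_v18.0 (-0.46) and miR-1280_v18.0 (-0.20), were not called.

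Of the miR-125, miR-100 and miR-99 list, 2 of 5 members were tested and both fell, as described above. The list of the miR-17-92 and miR-106b-25 clusters, known as MYC targets that promote growth, also holds miR-92b-3p, which shares a seed with miR-25-3p but comes from a locus of its own. Of its 11 members on the array 5 were tested, with a median of -1.20 and miR-25-3p and miR-92b-3p called lower. miR-92a-3p, the holder of that seed that was not called, read 0.73, 1.64, -0.10 and 1.09 at 0 Gy and -0.53, 0.50, -0.78 and -0.63 at 2 Gy, a difference of -1.20 ± 0.48 (adjusted p = 0.0972). miR-93-5p (-1.46) and miR-17-5p (-1.07) were not called either.

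The pair miR-221-3p and miR-222-3p, transcribed together, had 1 call. miR-222-3p read -0.95, -0.35, -2.45 and -0.49 at 0 Gy and -3.52, -1.37, -3.50 and -3.44 at 2 Gy, a difference of -1.90 ± 0.61 close to the size for miR-221-3p, but with an adjusted p of 0.0520. In the miR-23, miR-27 and miR-24 clusters 4 of 5 members were tested and 0 called, with a median of -1.74. miR-24-3p, a known repressor of the histone gene H2AX, read 0.65, -1.19, -4.28 and 0.28 at 0 Gy and -4.60, -0.57, -4.60 and -4.60 at 2 Gy. Its replicates spread over more than 4 log2 units at both doses, and its difference of -2.46 ± 1.15 was not called (adjusted p = 0.141). The differences of miR-23a-3p (-1.60), its cluster mate miR-27a-3p (-1.88) and also miR-27b-3p (-1.17) were not called.

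The let-7 family, repressors of RAS, had 3 of 9 members tested and 0 called, with a median of -1.32. let-7b-5p read 0.58, 1.49, -1.39 and 1.07 at 0 Gy and -1.27, 0.38, -1.40 and -1.25 at 2 Gy, a difference of -1.32 ± 0.65 (adjusted p = 0.157). Replicate 3 at 0 Gy was at the level of 3 of the 2 Gy arrays. let-7c-5p (-1.55) and let-7i-5p (-1.01) were alike in this, and neither was called. The epithelial miR-200 family had 2 of 5 tested and 0 called. miR-141-3p differed by -0.82 ± 0.75 (adjusted p = 0.424), and its cluster mate miR-200c-3p by -2.14 ± 0.85 (adjusted p = 0.0972). From the miR-29 family, which represses collagens, 1 of 3 was tested. miR-29a-3p read 1.40, 1.68, -1.87 and 1.63 at 0 Gy and -2.31, 0.27, -2.18 and -2.87 at 2 Gy. Its difference of -2.48 ± 0.96 was not called (adjusted p = 0.0940).

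Few miRNAs tied to the response to DNA damage were tested, and 0 of them were called higher at 2 Gy. Over all tested miRNAs 17 of 283 (6.01%) were called higher, so a count of 0 among so few is near that share. Of 11 p53-responsive names 2 were tested and 0 called. miR-34a-5p, the best known of them, read -2.16, -0.93, -4.44 and -0.71 at 0 Gy and -4.38, -1.86, -4.45 and -4.60 at 2 Gy. The groups overlapped and the difference was -1.76 ± 0.82 (adjusted p = 0.141). miR-145-5p had a difference of -0.77 ± 0.36 (adjusted p = 0.141). miR-34b-5p, miR-34c-5p, miR-192-5p and miR-215-5p were detected on 0 of 16 arrays. From the DNA damage response list, 3 of 8 were tested, with miR-100-5p called lower and miR-24-3p and miR-181a-5p (-1.25 ± 0.49, adjusted p = 0.0940) not called. Of the colorectal cancer list 3 of 7 were tested, with miR-21-5p called lower. Neither miR-183-5p (-1.03) nor miR-31-5p (-1.37) was called. The hypoxia miRNA miR-210-3p had a difference of -1.53 ± 0.65 (adjusted p = 0.112).

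Some lists split. From the miR-30 family, 5p and 3p arms differ in sequence and are listed apart. Of the 5p arms 2 of 5 were tested, miR-30e-5p called lower and miR-30d-5p at 0.24 ± 0.32 (adjusted p = 0.605). Of the 3p arms 2 of 6 were tested, miR-30c-2-3p called higher and miR-30c-1-3p, with the same seed, at 0.58 ± 0.26 (adjusted p = 0.133). From 14q32, 4 of 12 were tested, with miR-494-3p and miR-539-5p lower, miR-134-5p higher and miR-370-3p at 0.39 (adjusted p = 0.0641). Members of 1 imprinted cluster were thus called in both directions, with a median of 0.02.

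Of the chromosome 19 miRNAs 4 of 14 were tested and 3 rose, with a median of 0.54, and the fourth, miR-498, was at 0.04 ± 0.13. The median was above 0 under every scaling tried. Another list holds 18 miRNAs labelled GC-rich, many but not all of them bright on these arrays. The label was not checked against human sequences. In the mouse entries, G or C made up 18 of 22 bases in miR-149-3p, 13 of 21 in miR-188-5p and 12 of 22 in miR-483-5p. These 3 rose, 0 of the list fell, and the median was 0.21. Those counts depend on the scaling: 11 rose with scaling over all probes (median 0.60), where 111 of all 283 tested were called higher (median 0.40). With quantile normalization 3 rose and 1 fell (median 0.04), against 54 higher and 16 lower of all 283 (median 0.20). Without 0 Gy replicate 3, 10 rose, against 59 of all 283. Next to the called ones, miR-1275 had the largest difference (0.48, not called). The 5 with the strongest probe signal, which does not rank amounts of RNA, were not called: miR-1202 (0.27), miR-1207-5p (0.38), miR-4281 (0.38), the mirtron miR-1225-5p (0.22) and miR-762 (0.21). The miR-320 family, made without Drosha, had 5 of 5 tested and 0 called, with a median of -0.14 that turned to 0.25 with scaling over all probes, where miR-320a (main difference -0.01) was called higher at 0.38 (adjusted p = 0.0344). The main differences of miR-320b, miR-320c, miR-320d and miR-320e were -0.14, 0.14, -0.77 and -0.84.

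**Figure D5:**
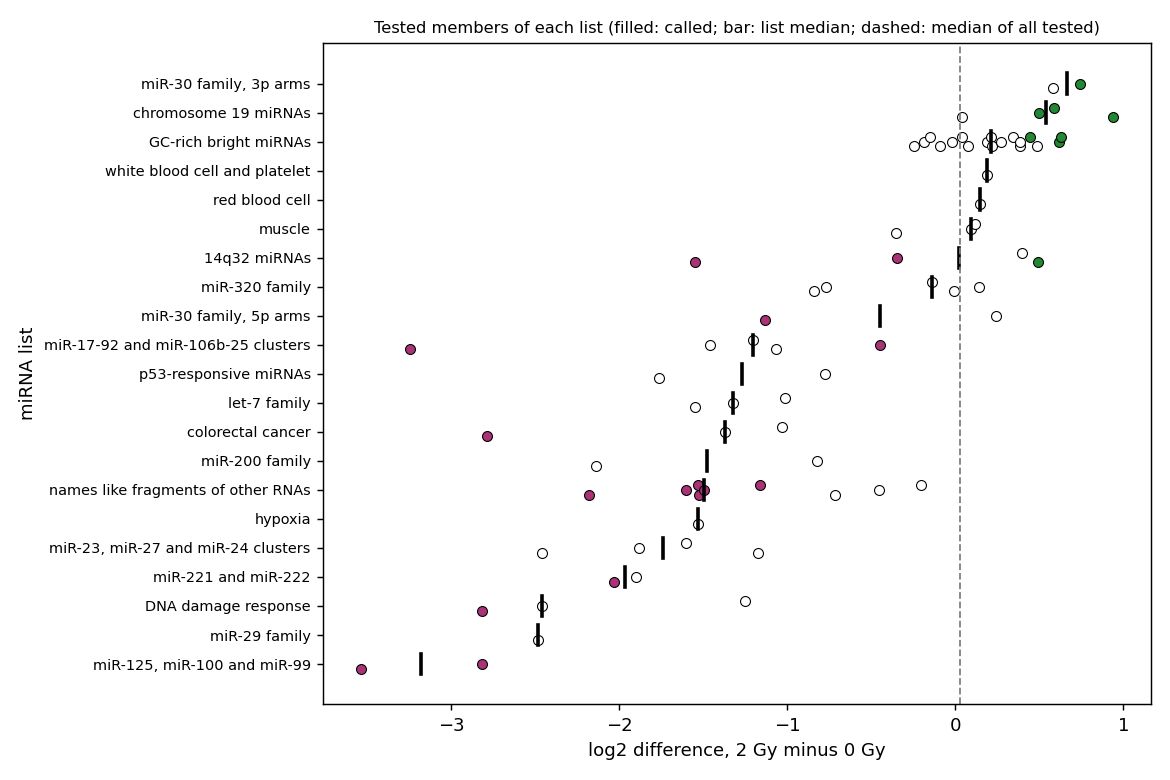
Each tested member of 21 lists by its log2 difference (x axis, 2 Gy minus 0 Gy), with called members filled, each list's median as a bar and the median of all 283 tested (0.03) as a dashed line. The median of the miR-125, miR-100 and miR-99 list (-3.18) lies farthest left, and those of the miR-30 3p arms (0.66) and the chromosome 19 miRNAs (0.54) lie farthest right.

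Detection gives the same comparison without a level. On all 4 arrays of 0 Gy 267 miRNAs were detected, on all 4 of 2 Gy 261, and on all 8 247, while 812 of 1205 were detected on 0 of the 8. Detected on all 4 arrays of 0 Gy and on 1 array of 2 Gy were 9 miRNAs. The called ones were miR-100-5p, miR-125b-5p, miR-1274a_v16.0, miR-21-5p and miR-221-3p, and the others miR-24-3p, miR-27b-3p, miR-342-3p (-0.86) and miR-425-5p (-1.89). The reverse, 1 array of 0 Gy and all 4 of 2 Gy, was found for miR-518e-5p, also from chromosome 19, whose level was at the floor on the 0 Gy arrays and at -4.11, -4.31, -4.13 and -4.0 at 2 Gy (0.46 ± 0.18, adjusted p = 0.0940). Not 1 miRNA was detected on 4 arrays of either dose and 0 of the other dose.

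The split between rises and falls depends on the scaling. Scaled over all probes, 111 miRNAs were called higher and 18 lower, with the median of all tested moved from 0.03 to 0.40. With quantile normalization 54 were higher and 16 lower, at a median of 0.20, and with no scaling limma called 0, with 36 at an unadjusted p under 0.05. All 36 main calls kept their direction under these 3.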

How the data were processed

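Members and lists were chosen with earlier results of these data known. The deposited files came from Feature Extraction 11.5.1.1, 1 for each Agilent miRNA array hybridised with Cy3, and their processed signal is a background-subtracted intensity not yet scaled, per the file headers. Spots of controls and spots flagged as outliers were dropped, and detection of a probe required that a share over 0.5 of its spots be well above background. Signals were scaled as described, floored at 0.0412 (log2 of -4.60), the median array's 5th percentile among detected probes, and averaged over a miRNA's kept probes (592 of 3101). limma 3.58.1 in R 4.3.3 was fitted on 16 arrays with a mean per dose. The data.table package (1.17.8) read the files, and matplotlib 3.10.9 under Python 3.11.15 drew the figures. The text names every called miRNA, with array values for the 10 largest rises and falls, every tested member of lists of up to 6, the 4 largest changes of longer lists, miRNAs detected on all 4 arrays of 1 dose and at most 1 of the other, and the 5 brightest. A few values beyond that rule were chosen after they were seen. Of 161 names in 23 lists, 159 were on the array. No arrays held identical values. In 50 simulations of 2 Gy against 0 Gy with 60 of 283 miRNAs changed, limma found 85.4% of those changed by 1 in log2 and 94.6% of those changed by 2, and 3.68% of its calls were false. The simulated noise was independent for each miRNA, with no floor and no shift shared by the miRNAs of an array. These rates therefore check the procedure and do not give the power or the share of false calls in these data. The number of arrays limits the precision. The alternatives were other scalings, background corrections, floors, filters, blocks and weights, and each array left out. Leaving out 0 Gy replicate 3 with 2 Gy replicate 2 was chosen after seeing the data.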

Additional observations from a re-analysis of the deposited data

Results flagged for a closer look

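Values are log2 levels, and a value is given where its gap to the nearest other array of the dose exceeded Dixon's 95% limit for 4 values. This held for 42 of 158 tested groups of the 79 named miRNAs (26.6%), and 30 of the 42 were on 2 Gy replicate 2 and 9 on 0 Gy replicate 3. Chance flags about 1 in 20 groups of independent values, but that does not apply here: the miRNAs were chosen in part for their change, share arrays, and in 11 flags the other 3 arrays were all at the floor, where any level above it is flagged.

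On 2 Gy replicate 2, some miRNAs stood above 3 arrays that were at or close to the floor of -4.60. Among called miRNAs these were miR-125b-5p at -1.01, miR-25-3p at -1.33, miR-100-5p at -1.96, miR-21-5p at -2.64, miR-221-3p at -3.30, miR-30e-5p at -3.85 and miR-1274a_v16.0 at -3.93. Among miRNAs not called they were miR-24-3p at -0.57, miR-27b-3p at -3.74, miR-31-5p at -2.28, miR-34a-5p at -1.86, miR-342-3p at -3.45 and miR-425-5p at -3.17. Others stood above 3 arrays that were measured: let-7b-5p at 0.38, let-7c-5p at -1.25, let-7i-5p at -2.08, miR-17-5p at -1.04, miR-93-5p at -1.55, miR-183-5p at -2.57, miR-200c-3p at -1.22, miR-210-3p at -1.17, miR-222-3p at -1.37, miR-23a-3p at -1.73, miR-320d at 0.51, miR-320e at -0.071 and miR-4299 at -3.43. The same array stood below the other 3 for miR-30c-1-3p at -2.83, miR-1224-5p at -0.35, miR-1225-5p at 4.70 and miR-483-5p at 1.69.

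On 0 Gy replicate 3, the array with the lowest labelling control, the level was below the other 3 for miR-125b-5p at -3.43, miR-25-3p at -3.29, miR-100-5p at -3.23, miR-29a-3p at -1.87, miR-17-5p at -2.67, miR-181a-5p at -3.89 and miR-31-5p at -4.60, and above them for miR-1202 at 4.77 and miR-30c-1-3p at -2.71. The part of labelling in these values was not tested for each miRNA. Flags on other arrays were miR-134-5p at 1.64 and miR-601 at -0.49 on 0 Gy replicate 1, both low, and miR-3181 at -3.64 on 2 Gy replicate 3, also low.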

How the results depend on the processing

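Main counts were 36 called, 17 higher and 19 lower, and all of the 36 that could be tested kept their direction under every setting. Direction was fixed in fits without a 6 Gy or 10 Gy array, with a block or on slide 1 alone, which keep the main differences. Counts within 1.5 times of these came from both other floors, the filter on 0 and 2 Gy, the brightest probe, the slide row as a block, the labelling control as a covariate, and limma's trend and robust options. Scaling over all probes gave 129 (111 higher), quantile normalization 70 (54 higher), normexp background correction 19 (7 and 12) and array weights 203 (117 and 86). Agilent's total signal per miRNA gave 10 lower, and the filter to miRNAs detected on all 8 arrays 9 lower, with fewer lower miRNAs tested. limma called 0 with no scaling (36 at an unadjusted p under 0.05), with slide 1 alone (69) and with no filter (136), where 1205 miRNAs were tested. Same-numbered arrays correlated at -0.54, 0.71, 0.75 and -0.76 in their deviations from the dose means. Replicates 1 and 4 each correlated better with an array of another number (0.80 and 0.88). With signs this mixed, these values do not settle whether replicate numbers pair the samples, and the main fit had no replicate block. With the replicate block on 16 arrays 68 were called (29 and 39), and with the replicate block on slide 1 alone 0 (91 unadjusted). With 1 array left out, calls ran from 0 to 121, from 0 to 59 higher and from 0 to 62 lower. Without both arrays that stand apart, a choice made after seeing the data, 152 were called (85 and 67). miR-320a turned from -0.01 to 0.38 with scaling over all probes. The difference in detected miRNAs, -27, ran from -42.8 to -14.2, with the smallest possible exact permutation p (0.0286) without 2 Gy replicate 2. The difference in the 75th percentile, 0.11, was -0.28 over all probes and ran from -0.043 to 0.24 with 1 array left out. For other than the filters, the cause was not tested. Levels below -4.60 could not be read.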
